A study of Mus musculus with 23 samples.

Results

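The nuclear-encoded subunits of the mitochondrial respiratory chain and ATP synthase were followed across the lymph node, bone marrow and spleen of mice with Stat5b mutations. Members were chosen by gene symbol, with earlier results of these data known, as the Nduf genes of complex I, Sdha to Sdhd of complex II, the Uqcr genes of complex III, the Cox4 to Cox8 genes (Cox6b and Cox6c of the Cox6 genes) of complex IV and the Atp5 genes of complex V, and 83 of the 32285 genes in the tables met the rule. Complex I had 36 members, complex II 4, complex III 8, complex IV 16 and complex V 17, and 2 genes with Nduf symbols, Ndufa4 and Ndufa4l2, were counted apart because Ndufa4 is a subunit of complex IV. The 13 genes of the mitochondrial genome were read beside them.

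Complexes I and II feed electrons from NADH and succinate to ubiquinone, complex III passes them to cytochrome c, and complex IV passes them to oxygen, while complex V uses the proton gradient to make ATP. Most subunits are made from nuclear genes and imported, and complexes I, III, IV and V also need subunits made from mitochondrial DNA, whereas complex II, which is also the succinate dehydrogenase of the TCA cycle, is nuclear throughout. In marrow, respiration is low in quiescent stem cells and rises as progenitors proliferate and mature, and erythroid precursors need mitochondria for heme synthesis.

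Single-cell RNA-seq was performed on tissues of 2-month-old mice (C57BL/6 in the labels, C57BL/6N in the study's methods) that were wild type (WT) or carried a point mutation of the same tyrosine of the transcription factor STAT5B, either to phenylalanine (Y665F, made with Cas9 and a donor oligonucleotide) or to histidine (Y665H, made by base editing). Lymph node (LN) had 2 WT libraries, 3 libraries labelled het for Y665F and 2 labelled homo. Bone marrow (BM) had 2 libraries each of WT, Y665H and Y665F, and spleen had 1 library of each, made from CD45+ cells of 3 pooled mice. The labels give no zygosity for BM and spleen. Nothing else in the labels says which libraries of a group came from separate animals, so p-values measure the spread between these libraries. The study's methods name male mice, but replicate 1 of each BM genotype held 9745 to 49129 UMIs of Xist, the RNA of the inactive X chromosome, and at most 5 of 4 Y-linked genes, and replicate 2 at most 29 and at least 1660, so replicate number and sex cannot be told apart in BM.

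Levels are given as CPM, the counts of a gene per 1000000 unique molecular identifiers (UMIs) of the kept barcodes, and are not divided by gene length. Kept UMIs ran from 2372988 to 16089493 per library in LN, from 16131568 to 55554584 in BM and from 36644610 to 47020817 in spleen. In LN, Y665F het replicate 3 and Y665F homo replicate 1 were shallow, with medians of 410 and 436 UMIs per barcode against 874 to 3119 in the others. Members took 1.48 to 1.72% of UMIs in LN, 3.76 to 5.54% in BM and 1.34 to 1.42% in spleen. Of the 83 members, 77 had a UMI in every LN library and 79 in every library of BM and of spleen. Cox7b2 was at 0 in all 3 tissues, Cox8c was at 0 in LN and spleen, and Cox8b and Ndufa4l2 were at 0 in BM. Atp5l, Atp5h and Uqcrb share most of their 31-base words with other genes, so their counts are uncertain.

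The BM libraries differed in cell content. Barcodes in a gate on stem cell markers were 3.35 and 1.48% of those kept in WT. They were 0.87 and 0.76% in Y665H and 6.77 and 7.71% in Y665F. The summed level of 5 early erythroid markers was 5482.1 and 5927.9 CPM in WT, 7511.7 and 5339.0 in Y665H, and 1195.4 and 945.0 in Y665F. The sum of 7 neutrophil markers was 38.3 to 199.8 CPM in the 4 WT and Y665H libraries and 3491.0 and 1488.7 in Y665F, and that of 3 megakaryocyte markers was at most 153.6 against 581.1 and 780.7. In sums over a library, fewer cells of a type and less RNA per cell cannot be told apart, and the part of cell content in the whole-library results was not tested other than by the gates on marker genes.

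In BM, some subunit genes of complexes I, II, III and V were lower in Y665F than in WT, with the largest drop in Sdhb of complex II, while the scarce complex IV isoform Cox4i2 was higher. Of the 79 members tested, 22 were lower and 1 was higher in Y665F (edgeR quasi-likelihood test, Benjamini-Hochberg adjusted p under 0.05), beside 16.3% of all genes tested lower and 15% higher. A change beyond 1 on the log2 scale was seen in 10 of the lower members. The median log2 fold change of the members was -0.41, beside 0.04 over all genes. In CPM both Y665F libraries were below both WT libraries for 39 members, above for 9, and overlapped with WT for 31, beside 24.6% of all genes tested below and 40.1% above. With transcript length taken into account by an offset, described further on, 14 members were lower and 3 higher, beside 14.6% of all genes lower, and the median was -0.11. The count of 23 also rested on single libraries. It was 41 without WT replicate 1, 12 without WT replicate 2, 19 without Y665F replicate 1 and 6 without Y665F replicate 2. The 6 that passed without Y665F replicate 2 were Sdhb, Sdhd, Ndufa10, Ndufv1 and Uqcrc2, which were lower, and Cox4i2, which was higher. These 6 passed under all 16 alternatives tried on the whole libraries.

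Complex II was lower through 3 of its 4 genes. Sdhb, the iron-sulfur subunit (chr4:140961203-140979193, plus strand, GRCm38), was at 403.5 and 544.0 CPM in WT, 550.1 and 527.7 in Y665H, and 179.1 and 113.8 in Y665F. The Y665F libraries lay far below the 4 others, and the fitted difference from WT was -1.89 ± 0.31 (log2, SE, n = 2 per genotype; edgeR adjusted p = 0.000638). Over the alternatives it ran from -2.32 to -1.47. Sdhd, a membrane anchor subunit (chr9:50596357-50603812, minus strand), was at 196.8 and 178.2 CPM in WT, 215.8 and 181.4 in Y665H, and 100.9 and 101.6 in Y665F, a log2 difference from WT of -1.06 ± 0.23 (edgeR adjusted p = 0.00345). Sdhc, the other anchor (chr1:171127165-171150603, minus strand), was at 84.4 and 80.5 CPM in WT, 85.3 and 69.0 in Y665H, and 59.9 and 56.9 in Y665F. Its log2 difference was smaller, at -0.67 ± 0.21 (edgeR adjusted p = 0.0240). Sdha, the flavoprotein that oxidises succinate (chr13:74322254-74350280, minus strand), did not follow the other 3. It was at 90.2 and 57.6 CPM in WT, 64.9 and 60.0 in Y665H, and 90.2 and 115.9 in Y665F, with a log2 difference of 0.33 ± 0.22 (edgeR adjusted p = 0.248).

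**Figure D1:**
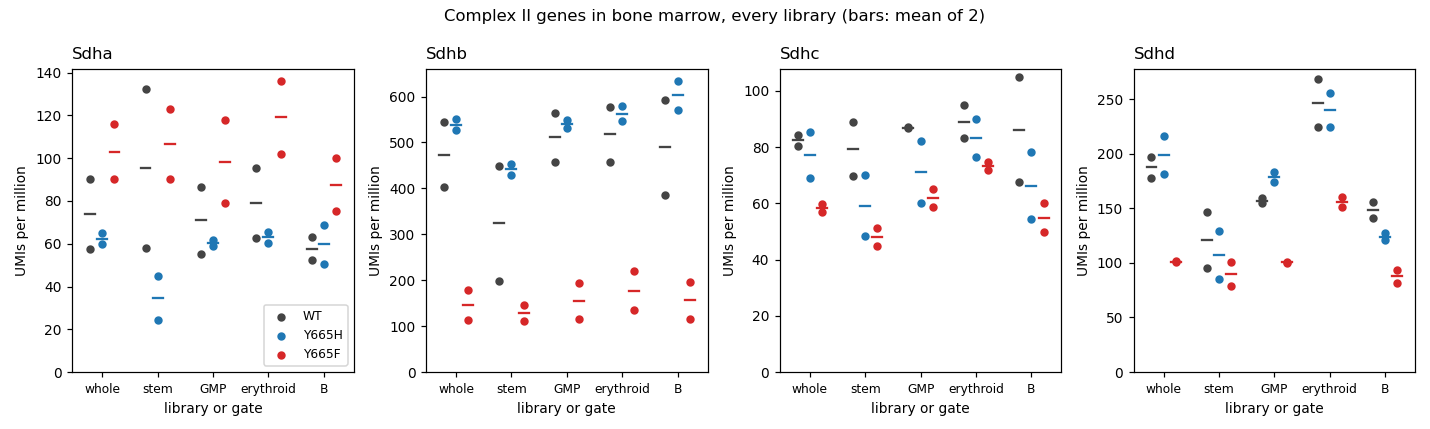
CPM of the 4 complex II genes in the 6 bone marrow libraries, whole and within 4 gates on marker genes (stem, GMP, early erythroid, B lineage), with points for libraries, bars for the mean of the 2 libraries of a genotype and an axis that starts at 0. In whole libraries Y665F lies below WT and Y665H for Sdhb, Sdhc and Sdhd, but not for Sdha.

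Promoter windows with a match are shown for Sdhb and Sdhd, which were lower in every setting tried on whole BM libraries, and for Atp5c1, Atp5o, Atp5k and Uqcrc1 as lower members of complexes III and V. Ndufa10, Ndufv1 and Uqcrc2 were lower in those settings too, and no window is shown for them. The windows of 30 bases come from RefSeq (GRCm38.p6, 250 bases before to 50 after the annotated start). Capitals mark the match, which is to CGCANGCG (the core of the site of NRF1, a regulator of respiratory genes) or to CCGGAAG (the core of the site of ETS factors such as GABP), on either strand.
Sdhb, CCGGAAG, chr4:140961266-140961295 plus: gctcggagaaaCCGGAAGcggccttccact
Sdhd, CCGGAAG on the other strand, chr9:50603877-50603906 minus: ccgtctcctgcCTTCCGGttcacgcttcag
Sdhd, CGCANGCG, chr9:50603909-50603938 minus: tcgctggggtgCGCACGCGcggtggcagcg
Atp5c1, CGCANGCG, chr2:10080430-10080459 minus: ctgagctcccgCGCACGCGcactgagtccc
Atp5o, CGCANGCG on the other strand, chr16:91931602-91931631 minus: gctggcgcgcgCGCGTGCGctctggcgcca
Atp5k, CGCANGCG, chr5:108434430-108434459 minus: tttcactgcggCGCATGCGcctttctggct
Uqcrc1, CGCANGCG, chr9:108936668-108936697 plus: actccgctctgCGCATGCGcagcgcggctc

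Of the 83 members, 69 had a promoter in the table. CGCANGCG was found in any promoter of 25 of the 69 (36.2%), beside 9.22% of the 27025 genes in the table and 8.21% of their 32851 promoters, and CCGGAAG in 16 (23.2%), beside 9.93% of genes and 8.86% of promoters. AAGATGGCG, a form of the YY1 site, was found in 7 (10.1%), beside 1.64% and 1.40%. Among members with a promoter, CGCANGCG was found in 6 of the 17 lower in BM Y665F and in 19 of the 47 others tested, and CCGGAAG in 5 of 17 and 11 of 47. A match is only a stretch of letters, and binding was not measured here.

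In complex I, which takes electrons from NADH, 9 of 36 members were lower and none was higher in Y665F, with a median log2 fold change of -0.47. Ndufa10, an accessory subunit, was at 180.3 and 171.2 CPM in WT, 192.9 and 157.4 in Y665H, and 92.6 and 85.0 in Y665F. The Y665F libraries had about the same level as each other and lay below all others (log2 difference from WT -1.16 ± 0.23, edgeR adjusted p = 0.00224). Ndufv1, the core subunit that binds FMN and NADH, was at 127.4 and 103.8 CPM in WT, 123.4 and 83.2 in Y665H, and 66.3 and 53.4 in Y665F (log2 difference -1.11 ± 0.24, edgeR adjusted p = 0.00330). Ndufa3, an accessory subunit, had WT libraries farther apart, at 557.2 and 959.6 CPM, beside 935.2 and 1381.7 in Y665H and 464.2 and 362.1 in Y665F (log2 difference -1.09 ± 0.34, edgeR adjusted p = 0.0243). Ndufa9, Ndufb1-ps, Ndufs3, Ndufs8 and Ndufv2 were lower as well.

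In complex III, which reduces cytochrome c, 3 of 8 members were lower and none was higher. Uqcrc2, one of the core proteins (chr7:120635176-120659524, plus strand), was at 169.7 and 128.4 CPM in WT, 159.2 and 111.8 in Y665H, and 80.1 and 72.1 in Y665F (log2 difference -1.12 ± 0.23, edgeR adjusted p = 0.00279). Uqcrc1, the other core protein (chr9:108936633-108949623, plus strand), was at 265.8 and 180.6 CPM in WT, 242.4 and 145.3 in Y665H, and 125.2 and 102.9 in Y665F (log2 difference -1.11 ± 0.27, edgeR adjusted p = 0.00639). Both were below all WT and Y665H libraries in Y665F. Uqcrfs1, the Rieske iron-sulfur protein, was at 354.6 and 366.2 CPM in WT, 420.0 and 340.8 in Y665H, and 254.2 and 211.3 in Y665F (log2 difference -0.81 ± 0.25, edgeR adjusted p = 0.0248). Uqcrh, the small hinge protein, went the other way in CPM, at 696.3 and 823.8 in WT, 780.1 and 859.0 in Y665H, and 1163.5 and 1343.9 in Y665F, although its log2 difference of 0.53 did not pass the test (edgeR adjusted p = 0.140).

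Complex V had 7 of 17 members lower and none higher. Atp5c1, the gamma subunit of the rotor (chr2:10056016-10080510, minus strand), was at 668.3 and 749.2 CPM in WT, 780.9 and 687.0 in Y665H, and 389.8 and 263.2 in Y665F (log2 difference -1.30 ± 0.28, edgeR adjusted p = 0.00364). Atp5o, which holds the peripheral stalk to the catalytic head, was at 561.5 and 729.5 CPM in WT, 766.6 and 800.0 in Y665H, and 387.3 and 333.2 in Y665F (log2 difference -1.04 ± 0.28, edgeR adjusted p = 0.0112). Atp5k, a small membrane subunit, was at 316.3 and 427.6 CPM in WT, 531.9 and 736.2 in Y665H, and 234.9 and 204.2 in Y665F (log2 difference -0.96 ± 0.29, edgeR adjusted p = 0.0219). In all 3 genes the Y665F libraries were the lowest. Atp5b, Atp5d, Atp5f1 and Atp5g1 were the other 4 lower members.

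Complex IV, cytochrome c oxidase, had none of 13 tested members lower and 1 higher (median log2 fold change -0.28). The higher member was Cox4i2, the alternative isoform of subunit 4 (chr2:152754173-152765037, plus strand). It was scarce, at 1.86 and 1.85 CPM in WT, 1.46 and 3.40 in Y665H, and 15.9 and 12.4 in Y665F, which stand for 30 and 51, 60 and 88, and 883 and 614 UMIs (log2 difference 2.75 ± 0.36, edgeR adjusted p = 0.000203). The common isoform Cox4i1 overlapped between genotypes, at 1279 and 1588 CPM in WT and 1518 and 1810 in Y665F. Cox8a, another abundant subunit, overlapped as well, at 1640.5 and 2146.9 CPM in WT and 1746 and 1843 in Y665F. The symbols that chose the members leave out Cox6a1 and Cox6a2, which encode subunit 6a of complex IV. Cox6a2, the isoform known from heart and skeletal muscle, was lower, at 26.7 and 64.6 CPM in WT, 31.8 and 47.2 in Y665H, and 17.4 and 22.3 in Y665F (log2 difference -1.45 ± 0.36, edgeR adjusted p = 0.00814), so complex IV was not without lower subunits. Cox6a1 was not called in whole libraries. In the early erythroid gate, described further on, it was higher (log2 difference 0.60 ± 0.21, edgeR adjusted p = 0.0430). Its levels there were 665.9 and 574.0 CPM in WT, 621.0 and 610.8 in Y665H, and 898.5 and 1197.4 in Y665F. The difference between complexes was not tested.

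**Figure D2:**
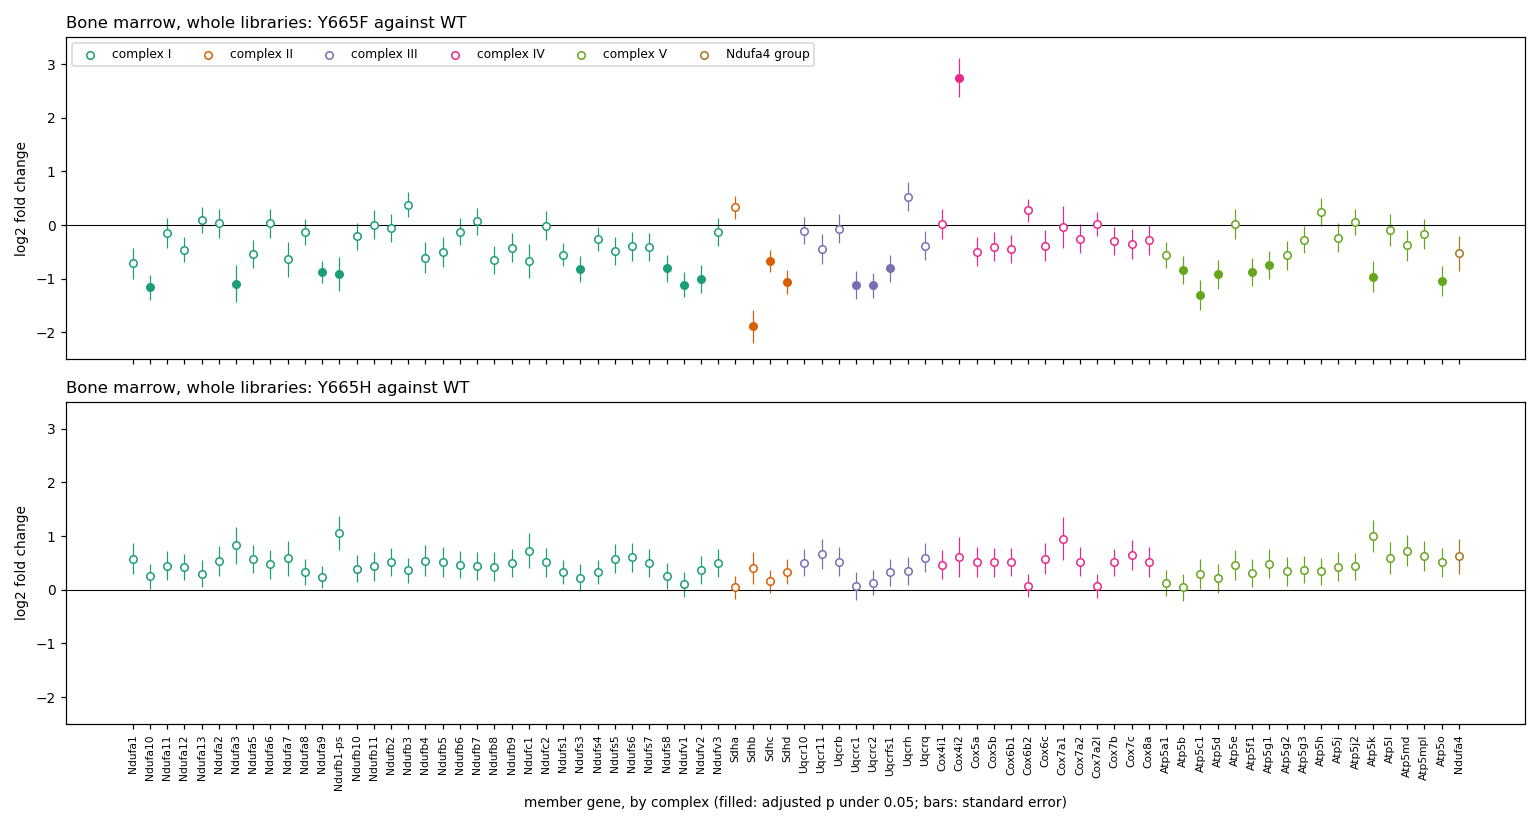
Log2 fold change of 78 of the 79 tested members in whole bone marrow libraries, for Y665F (top) and Y665H (bottom) against WT, grouped by complex, with bars for the SE and filled points for an edgeR adjusted p under 0.05. In Y665F Sdhb is the lowest member and Cox4i2 the highest, and in Y665H no point is filled.

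No mitochondrially encoded gene passed as lower. Of 13, 1 was higher in Y665F than in WT and none was lower, and their median log2 fold change was 0.35. In CPM both Y665F libraries were above both WT libraries for 7, beside the 40.1% of all genes. The gene that passed was mt-Atp8, a subunit of the complex V membrane part, at 46.0 and 22.9 CPM in WT, 24.2 and 33.0 in Y665H, and 117.7 and 138.6 in Y665F (log2 difference 1.77 ± 0.25, edgeR adjusted p = 0.000324). The gene mt-Atp8 overlaps mt-Atp6, so the reads of the 2 genes could be split by the counting. In mt-Atp6 itself the WT libraries, at 2142 and 1288 CPM, overlapped with those of Y665F, at 1963 and 2584. For mt-Co1, a catalytic subunit of complex IV, WT was at 3232 and 2671 CPM, Y665H at 2291 and 3052, and Y665F at 4728 and 6231, and for mt-Nd1, a complex I subunit, WT at 840.8 and 527.6 overlapped with Y665F at 680.2 and 943.4. Barcodes over 10% mitochondrial UMIs had been removed, which acts on these genes.

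Summed by complex, the Y665F libraries lay below the WT range for complexes I, II and V. Complex II was farthest below it in proportion, and its 4 genes summed to 817.6 ± 60.4 CPM in WT, 877.1 ± 55.1 in Y665H and 409.1 ± 29.7 in Y665F (mean ± SD, n = 2). Of the 4 genes, Sdhb had the highest level in WT. Complex I summed to 11156.6 and 14317.2 CPM in WT and 10894.2 and 11040.5 in Y665F, and complex V to 12890.1 and 14738.5 against 11783.2 and 11996.3. Complexes III and IV overlapped, at 3885.2 and 4411.7 CPM against 4025.3 and 4397.2, and at 8837.4 and 10951.0 against 8943.5 and 9655.4. All members together reached 39103.3 and 47870.3 CPM in WT, 49009.7 and 55372.6 in Y665H, and 37606.5 and 39307.6 in Y665F. The spread between the WT libraries was larger than the gap from WT replicate 1 to Y665F.

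**Figure D3:**
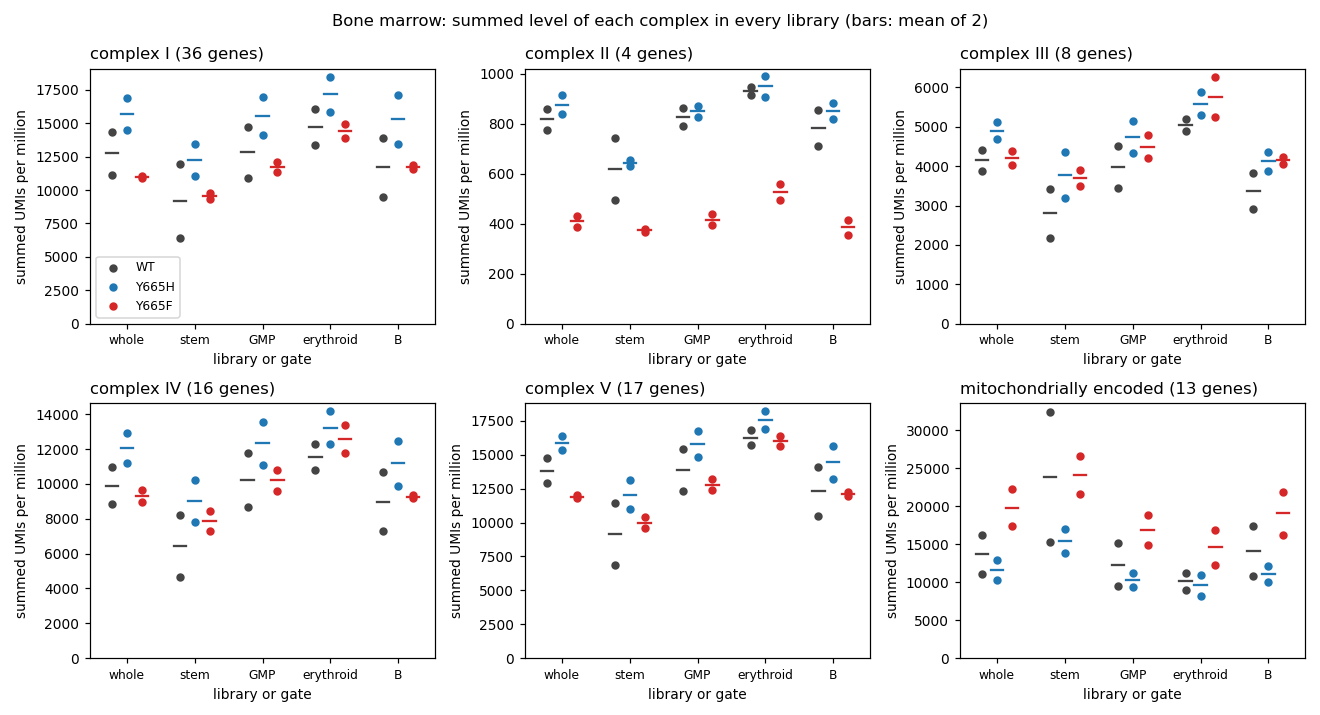
Summed CPM of each complex and of the mitochondrially encoded genes in the 6 bone marrow libraries, whole and within the 4 gates, with points for libraries, bars for the mean of 2 and axes that start at 0. In whole libraries the complex II sums of Y665F, 430.1 and 388.2, lie below all WT and Y665H sums, while complexes III and IV overlap.

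To read the genes within one kind of cell, barcodes were gated by UMIs of marker genes. The granulocyte-monocyte progenitor (GMP) gate needed at least 10 UMIs of Mpo, Elane, Prtn3 and Ctsg, and the early erythroid gate at least 10 of Klf1, Gata1, Car1, Car2 and Ermap, each with limits on the markers of other lineages. The GMP gate held 288 to 1972 cells per library and the early erythroid gate 422 to 3644, which was 19.3 and 26.5% of kept barcodes in WT, 34.9 and 26.1% in Y665H, and 6.19 and 2.26% in Y665F. Within the gates other markers still moved. In the GMP gate the neutrophil markers summed to 13.7 and 16.6 CPM in WT and 140.4 and 148.3 in Y665F, and the megakaryocyte markers to 13.1 and 17.0 against 110.6 and 312.4. In the early erythroid gate its own markers summed to 9697.5 and 12106.5 CPM in WT and 4417.8 and 2917.2 in Y665F. The part of these differences in the results was not tested.

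Within GMP-gated cells 16 of 79 members were lower and 3 higher in Y665F than in WT, beside 15.8% and 14% of all genes tested, and the median log2 fold change was -0.18 against 0.05. The share of lower members was near that of all genes. Sdhb was at 457.2 and 564.6 CPM in WT, 548.0 and 531.1 in Y665H, and 194.2 and 116.1 in Y665F (log2 difference -1.85 ± 0.30, edgeR adjusted p = 0.000142), close to its difference in whole libraries. Sdhc and Sdhd were lower too, as were Uqcrc1, Uqcrc2, Atp5c1, Atp5o and 7 complex I members, among them Ndufa10 and Ndufv1. The 3 higher members were Cox4i2, Uqcrh and Cox6b2, an isoform of subunit 6b best known from testis. Cox6b2 was at 38.0 and 29.1 CPM in WT, 29.4 and 26.2 in Y665H, and 84.9 and 87.1 in Y665F (log2 difference 1.25 ± 0.22, edgeR adjusted p = 0.000311), and Uqcrh at 644.3 and 719.6, 690.2 and 725.5, and 1140.8 and 1384.1 (log2 difference 0.75 ± 0.27, edgeR adjusted p = 0.0410). The count of 19 became 30 without WT replicate 1, 9 without WT replicate 2 and 3 without Y665F replicate 2, where Sdhb, Cox4i2 and Cox6b2 passed.

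In early erythroid cells 17 of 78 members were lower and 2 higher, beside 14.6% and 10.5% of all genes, and the median was -0.16 against 0.01. By transcript length, 1 of 30 members under 750 bases was lower beside 7.89% of all genes, 7 of 28 from 750 to 1500 bases beside 33.6%, 9 of 17 from 1500 to 3000 bases beside 22.7%, and 0 of 3 from 3000 to 6000 bases beside 5.51%. With the length offset 7 were lower, beside 8.85% of all genes, and 9 higher, for which the share of all genes is not given here. Sdhb was at 458.3 and 577.4 CPM in WT, 578.7 and 547.4 in Y665H, and 220.9 and 134.1 in Y665F (log2 difference -1.67 ± 0.27, edgeR adjusted p = 0.00102). Atp5c1, at 739.8 and 775.6 CPM in WT and 428.2 and 264.6 in Y665F, and Sdhd, at 268.5 and 224.4 against 160.5 and 151.5, were lower as in whole libraries. Cox6b2 was higher, at 164.5 and 125.0 CPM in WT, 119.8 and 113.6 in Y665H, and 302.0 and 315.5 in Y665F (log2 difference 0.95 ± 0.21, edgeR adjusted p = 0.00482). Cox4i2 was called on 0 and 3 UMIs in WT against 14 and 7 in Y665F. It passed the low-count filter through the Y665F libraries, so its call carries no weight and Cox6b2 is the higher member that rests on more counts. The count of 19 was 10 without either WT replicate and 3 without Y665F replicate 2, where Sdhb, Atp5c1 and Cox6b2 passed. The sum of all members overlapped in this gate, at 47336.9 and 53848.0 CPM in WT and 48806.5 and 53553.0 in Y665F.

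The 2 smaller gates gave few calls. In B lineage cells, gated on Cd79a, Cd79b, Ebf1, Vpreb1 and Vpreb3 (146 to 919 cells per library), 1 of 78 members passed, beside 3.68% of all genes, and it was Sdhb, at 386.3 and 592.7 CPM in WT, 634.7 and 570.9 in Y665H, and 196.8 and 115.0 in Y665F (log2 difference -1.66 ± 0.40, edgeR adjusted p = 0.0276). It no longer passed without WT replicate 2, without Y665F replicate 2 or without either Y665H replicate. In stem cell gated barcodes (91 to 1442 per library) none of 77 members passed with edgeR or DESeq2, beside 0.0846% of all genes, and 5 had an unadjusted p under 0.05, for which the share of all genes is not given here. There Sdhb was at 198.6 and 448.9 CPM in WT and 145.8 and 111.1 in Y665F. By transcript length, members in this gate had median log2 fold changes of 0.45 under 750 bases and 0.12 from 750 to 1500. From 1500 to 3000 bases their median was -0.11, and from 3000 to 6000 bases it was 0.23. All genes of these lengths had medians of 0.36, -0.16, -0.22 and 0.05. The WT stem cell libraries lay far apart, with all members at 21631.0 CPM in replicate 1 and 38284.6 in replicate 2. Leaving out a WT library brought calls, all higher in Y665F without replicate 2 and all lower without replicate 1. The share of all genes called in those fits is not given here. Complex II summed lower in Y665F in each gate, at 366.4 and 379.7 CPM against 496.5 and 742.9 in stem, 438.1 and 393.4 against 789.7 and 862.1 in GMP, 558.1 and 493.9 against 917.0 and 947.7 in early erythroid, and 415.1 and 356.8 against 709.5 and 854.0 in B lineage cells. In each gate Sdhb had the highest level of the complex II genes in both WT libraries, so these sums lean on Sdhb.

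Y665H showed no called member. With edgeR, 0 of 79 members passed between Y665H and WT in whole BM libraries, where 0% of all genes passed, and DESeq2 called 0 members. An unadjusted p under 0.05 was found for 13 members and for 723 of the 13923 genes tested. Of the log2 fold changes of the members 78 of 79 were above 0, with a median of 0.47, beside 6811 of 13923 genes above 0 and a median of -0.01 over all genes. Short transcripts were above 0 in general, with medians over all genes of 0.21 under 750 bases and 0.19 for 750 to 1500, where the members had 0.52 and 0.43, and the median was -0.15 for genes above 6000 bases. In CPM both Y665H libraries were above both WT libraries for 40 members, below for 1 and overlapping for 38, beside 4.96% of all genes tested above and 33.8% below. Atp5k had the smallest p (0.00362 unadjusted), at 316.3 and 427.6 CPM in WT and 531.9 and 736.2 in Y665H, and Ndufb1-ps was at 476.9 and 685.1 against 797.8 and 1252.4. All 4 complex II genes overlapped between Y665H and WT. In the gates 0 members passed as well, and 0% of genes in each, with 5, 5, 3 and 3 members under an unadjusted p of 0.05 in stem, GMP, early erythroid and B lineage cells and 0 by DESeq2. Their medians were 0.49, 0.33, 0.23 and 0.41. The shares of all genes under an unadjusted p of 0.05 in the gates are not given here. Leaving out WT replicate 2, whose distance from replicate 1 was given above, brought calls among stem cell members, all higher in Y665H. The share of all genes called in that fit is not given here. Ribosomal proteins, which are also short transcripts, had medians of 0.28 in the cytoplasmic and 0.39 in the mitochondrial set.

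The direct comparison of the mutants gave the most calls. Between Y665F and Y665H, 52 of 79 members were lower in Y665F and 1, Cox4i2, was higher (edgeR), beside 22% and 23.1% of all genes, with a median of -0.91 against 0.07. Lower members were 23 of 36 in complex I, 3 of 4 in complex II, 5 of 8 in complex III, 9 of 13 in complex IV and 11 of 17 in complex V, so complex IV was included here. Among the lower members Sdhb had the largest difference, at -2.30 ± 0.31 on the log2 scale (edgeR adjusted p = 0.000102), followed by Ndufb1-ps at -1.96 ± 0.32 and Atp5k at -1.96 ± 0.30, while the higher Cox4i2 was at 2.14 ± 0.35. Sdha did not pass (0.29 ± 0.21, edgeR adjusted p = 0.277). The comparisons of Y665F and of Y665H with WT share the WT libraries, and this one shares both mutant groups with them. The count of 53 fell to 27 without either Y665H replicate or Y665F replicate 2 and to 35 without Y665F replicate 1. Among mitochondrially encoded genes mt-Atp8 and mt-Nd6 were higher and mt-Nd3 was lower in Y665F.

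Log2 fold changes in BM moved with transcript length, and members are short, with a median of 861 bases against 2040 over all annotated genes. Length is that of the longest protein-coding transcript annotated for a gene, or of its longest transcript if none is protein-coding. Which form was expressed was not tested, so the bin of a gene can differ from the length of its main RNA. Between Y665F and WT the median over all genes tested was -0.17 for transcripts under 750 bases, -0.44 for 750 to 1500, -0.23 for 1500 to 3000, 0.25 for 3000 to 6000 and 0.50 above 6000. The members had medians of -0.20 (31 genes), -0.48 (28), -0.78 (17) and -0.67 (3) in the first 4 of these bins, near all genes of their length up to 1500 bases and below them from there on. Under 750 bases 2 of 31 members were lower beside 13.2% of all genes of that length, and from 750 to 1500 bases 9 of 28 beside 32.4%, so up to 1500 bases the share of members called lower was no larger than that of all genes. From 1500 to 3000 bases 9 of 17 were lower beside 24.1%, and from 3000 to 6000 bases 2 of 3 beside 7.68%. These 3 were Sdhc (3171 bases) and Atp5g1 (4715), which were lower, and Ndufb2 (4371), which was not. Lower members were the longer ones, with a median of 1524.5 bases in the 22 against 745.5 in the 56 that did not pass in either direction. With an offset for a smooth trend of expression on length in each library, 14 members were lower and 3 higher in place of 22 and 1. Of these 17, 14 also passed without the offset. Sdhb (-1.50), Sdhc (-0.75), Sdhd (-0.66), Uqcrc1, Uqcrc2, Ndufa10, Ndufv1 and Atp5c1 (-0.92) stayed lower, and Uqcrh (0.74) and the complex I subunit Ndufb3 (0.66) joined Cox4i2 as higher. In GMP cells, 1 of 31 members under 750 bases and 6 of 28 from 750 to 1500 were lower, beside 5.52% and 35.0% of genes of those lengths, and 8 of 17 from 1500 to 3000 beside 25.3%. The offset gave there 7 lower and 5 higher in place of 16 and 3 (11.3% of genes lower), and in early erythroid cells the 7 lower members stood beside 8.85% of genes. Between the mutants it gave 34 lower and 3 higher in place of 52 and 1. Shares of all genes with the offset are not given here for higher calls or for the comparison of the mutants. Sdhb passed with and without the offset in whole libraries and in the GMP and early erythroid gates.

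**Figure D4:**
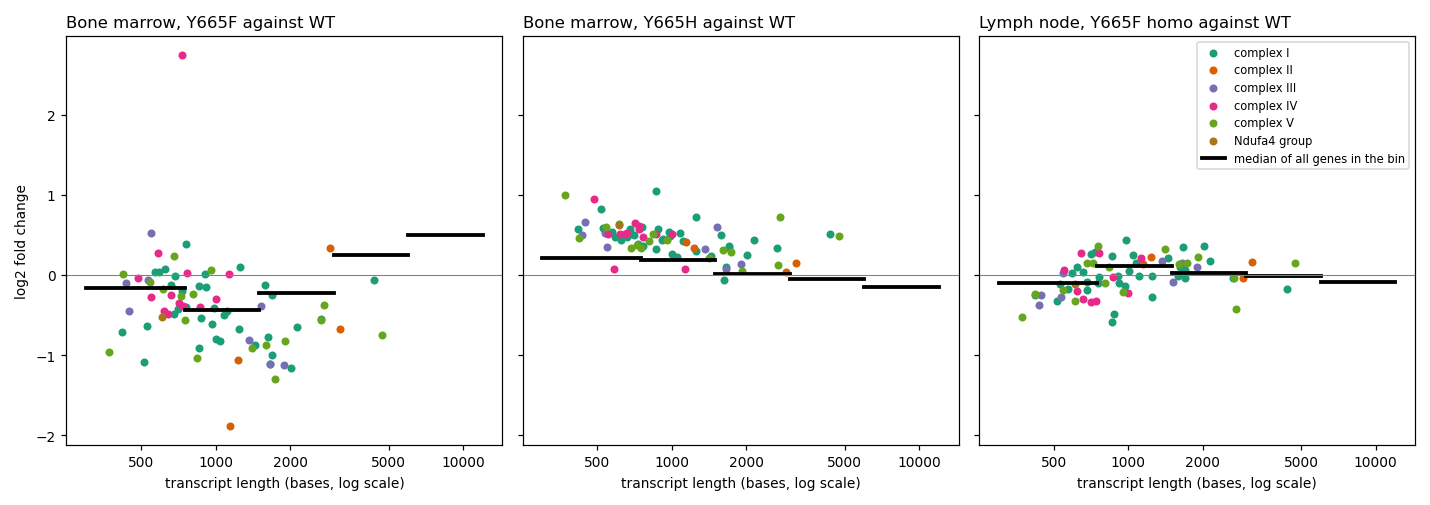
Log2 fold change of members against transcript length (log axis) for Y665F and Y665H against WT in bone marrow and for Y665F homo against WT in lymph node, with black bars for the medians of all genes tested in each length bin and open-ended outer bins. Between Y665F and WT in bone marrow, the median of members of 1500 to 3000 bases is -0.78, below the -0.23 of all genes of that length.

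Genes that work with the respiratory chain were counted from lists of known roles in the same BM comparison, where 16.3% of all genes were lower and 15% higher. Of 13 TCA cycle enzymes, 8 were lower in Y665F than in WT, including Idh3a (log2 fold change -1.59), Fh1 (-1.55) and Mdh2 (-1.15), which act before and after succinate dehydrogenase, and Cs (-0.79), which starts the cycle. Of 48 assembly factors 17 were lower, among them Lyrm7 (-1.50) for complex III, Taco1 (-1.30), Coa3 (-0.86), Cox18 (-0.68), Coa7 (-0.60) and Cox19 for complex IV, Tmem70 (-1.16) for complex V and Ecsit (-1.15) for complex I, and 2, Ttc19 (0.98) and Coa5 (0.69), were higher. Of 7 subunits and carriers with other symbols 4 were lower. They were Cox6a2 (-1.45), the electron carrier Cycs (-1.06), Dmac2l of complex V (-0.58) and Cyc1. Cyc1, the cytochrome c1 of complex III, was at 384.2 and 419.0 CPM in WT, 494.5 and 430.9 in Y665H, and 158.8 and 119.5 in Y665F (log2 fold change -1.71). Of 13 regulators, Esrra (1.28) and Yy1 (0.61) were higher, near the share of all genes, and Tfb1m (-0.87) was lower. With the length offset 1 regulator was higher and 1 lower, and in the GMP gate Esrra was not called. Mitochondrial ribosomal proteins were lower in 44 of 78, and cytoplasmic ones in 3 of 82 with 4 higher. These counts, too, depended on single libraries and on length, by alternatives applied to the lists after their values were seen. Without Y665F replicate 2, 5 TCA enzymes, 7 assembly factors, 2 of the other subunits and 11 mitochondrial ribosomal proteins were lower. Without WT replicate 2 it was 6, 9, 2 and 21, and without WT replicate 1 it was 7, 23, 6 and 62. With the length offset it was 6, 15, 3 and 35, and of the cytoplasmic ribosomal proteins 2 were then lower and 13 higher. In the GMP gate 15.8% of all genes were lower and 14% higher. There 7 of 13 TCA enzymes and 13 of 48 assembly factors were lower and the assembly factors Uqcc3 and Coa5 were higher. In the early erythroid gate, with 14.6% of genes lower and 10.5% higher, 8 and 13 were lower and Coa5 and Ttc19 were higher. In the same order of lists, 4 and 4 were lower without Y665F replicate 2 and 4 and 6 with the length offset in the GMP gate, and 1 and 1, and 4 and 7, in the early erythroid gate. Without WT replicate 2 it was 4 and 4 in the GMP gate and 6 and 9 in the early erythroid gate, where without WT replicate 1 it was 4 and 10.

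In LN no member passed in any comparison with the filter on low counts, and without it 6 did in whole libraries of Y665F homo (1 higher, 5 lower) and 2 in those of Y665F het (both lower). The shares of all genes called without the filter are not given here. Between Y665F homo and WT, edgeR and DESeq2 called 0 of 76 members in whole libraries, beside 4.6% of all genes by edgeR, and 8 had an unadjusted p under 0.05. Between Y665F het and WT 0 passed by either tool, beside 1.65% of genes, with 4 under an unadjusted p of 0.05. The changes were small, with log2 fold changes from -0.59 to 0.43 (median -0.01) in homo and from -0.47 to 0.30 (median 0.04) in het. Both homo libraries were above both WT libraries for 14 members, below for 13 and overlapping for 49, beside 16.9% of all genes tested above and 35.1% below. Gated CD8 T cells (1.83% of genes called), CD4 T cells (0.613%) and B cells (0.011%) of homo also gave 0 members by both tools, with 7, 2 and 9 under an unadjusted p of 0.05. The shares of all genes under that unadjusted p are not given here for LN. Leaving out 1 library gave 1 call in whole libraries (without Y665F het replicate 3) and 1 in CD8 T cells (without WT replicate 2). These gates hold other cell types than those of BM.

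Among the genes lower in BM, Sdhb in LN stood at 133.8 and 146.9 CPM for WT, 136.2, 144.3 and 155.5 for Y665F het, and 152.7 and 137.5 for Y665F homo, which overlap. Complex II as a whole overlapped too, with WT at 385.1 and 407.8 CPM, het at 375.1, 390.6 and 418.9, and homo at 424.3 and 375.5. Ndufa10 stood at 82.9 and 92.3 CPM for WT, 94.5, 100.4 and 106.6 for het, and 110.9 and 101.0 for homo, so every mutant library was above WT, though it did not pass (homo log2 fold change 0.36 ± 0.10, edgeR adjusted p = 0.0847). Ndufs7, a core iron-sulfur subunit of complex I, had the smallest p in homo (0.43 ± 0.12, edgeR adjusted p = 0.0724), and Atp5g2, a ring subunit of complex V, was next (0.36 ± 0.10, edgeR adjusted p = 0.0835). The mitochondrially encoded genes had log2 fold changes above 0 in het for 13 of 13, with a median of 0.23, of which 3 had an unadjusted p under 0.05 and none passed. In homo 8 of these 13 were above 0 and 5 below, with a median of 0.03, and 0 had an unadjusted p under 0.05. In CPM both homo libraries were above both WT libraries for 1 of the 13 and below for 4, beside 16.9% and 35.1% of all genes. Every het library was above both for 4 and below for 0, and the share of all genes with that order is not given here. The difference between het and homo was not tested.

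In spleen, with 1 library per genotype and so no test, the members differed little. None of 76 members with a mean of at least 10 CPM was past a log2 ratio of 0.5 to WT in either mutant, beside 13.2% of all genes in Y665F and 4.99% in Y665H. Ratios ran from -0.30 to 0.34 in Y665F (median 0.07, against -0.17 over all genes) and from -0.14 to 0.15 in Y665H (median 0.00). Sdhb was at 80.4 CPM in WT, 81.2 in Y665H and 76.8 in Y665F, a log2 ratio of -0.07 in Y665F with a 95% exact Poisson interval of -0.14 to 0.01 that covers counting error only. Sdhd had a ratio of 0.29 (0.18 to 0.41) and Sdha of -0.25 (-0.31 to -0.18), the opposite order to BM. Both directions held in gated CD8 T cells, but not in every gate. Sdhd was at 26.8 CPM in WT and 26.3 in Y665F in CD4 T cells, where Sdha stayed lower. Sdha was at 108.9 and 116.1 CPM in B cells, where Sdhd stayed higher. Complex II summed to 255.4 CPM in WT, 254.3 in Y665H and 243.4 in Y665F. Neutrophil markers in these libraries stood at 1499.1 CPM in WT, 13400.4 in Y665H and 27759.2 in Y665F. In gated CD8 T, CD4 T and B cells also 0 of 76 members were past 0.5 in either mutant. Of all 7402, 7472 and 7682 genes there, 174, 195 and 155 were past it as higher in Y665F and 561, 678 and 386 as lower. In Y665H 122, 132 and 139 were higher and 56, 81 and 70 lower. Of the 13 mitochondrially encoded genes 0 were past 0.5 in Y665F (median ratio 0.13) and 1 in Y665H (median -0.16). This was mt-Nd3, a complex I subunit, at 273.4 CPM in WT, 179.7 in Y665H and 342.8 in Y665F, with a log2 ratio of -0.61 in Y665H and a 95% exact Poisson interval of -0.65 to -0.56. In Y665H its ratio was also below -0.5 in the CD8 T (-0.58) and CD4 T (-0.52) gates, and was -0.44 in the B gate.

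**Figure D5:**
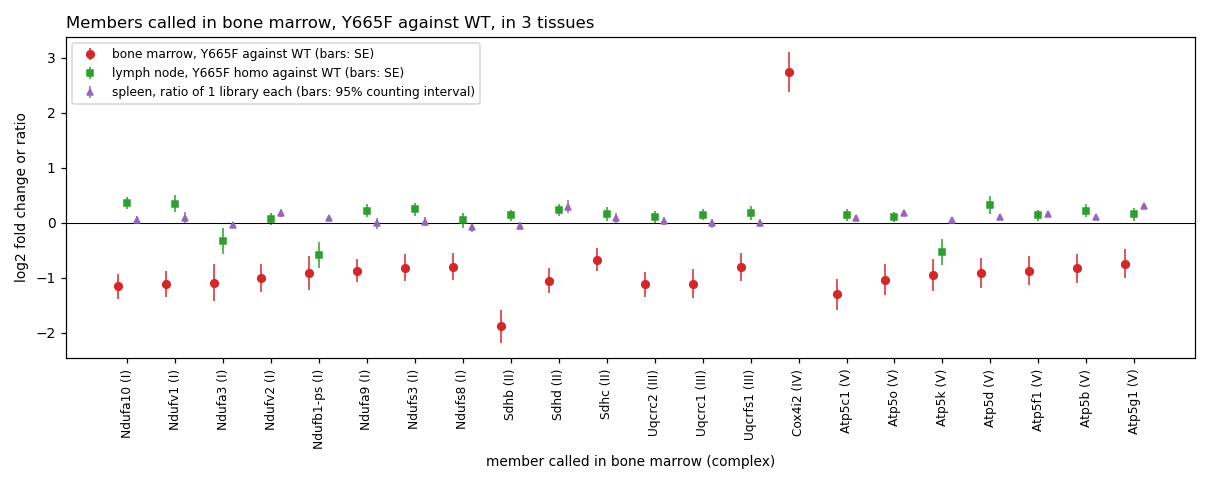
Log2 difference of 22 of the 23 members that passed in bone marrow between Y665F and WT in lymph node (homo), bone marrow and spleen, with bars for the SE of the fit in the first 2 tissues and for the 95% counting interval in spleen (1 library per genotype), and with Cox4i2 shown for bone marrow alone because it was too scarce in the others. Sdhb is at -1.89 in bone marrow and at -0.07 in spleen.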

How the data were processed

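Unique molecular identifier counts per gene and barcode were deposited by the authors as Cell Ranger matrices of 16 libraries. File headers name version 5.0.0 for LN and 6.0.0 for BM and spleen. The labels give mm10 and a 3′ kit, and the study's methods a 5′ kit. The 7 T cell receptor libraries were not used here. A barcode was kept if it had 200 genes or more and no more than 10% of its UMIs from mitochondrial genes. No doublet caller was run, but gates left out barcodes with markers of other lineages. Counts were summed per library and gate and tested with edgeR 4.0.16 (quasi-likelihood, TMM, filterByExpr, all genotypes of a tissue in 1 fit, limma 3.58.1, R 4.3.3), with adjustment over all genes tested. The SE is the log2 fold change divided by the root of F. Scripts were tested on simulated counts. Alternatives were DESeq2 1.42.0, other scalings and filters, a replicate block, a length offset and leaving out each library, the last 2 also applied to the related gene lists after their values were seen. Gene models came from GENCODE vM21, which matched 99.6% of genes. Members and lists were chosen with earlier results of these data known. Named genes were all called members or, above 12, the 3 with the largest change per complex, the 2 most abundant per complex and tissue, the Sdh genes and 4 mt genes. Other genes named were chosen after their values were seen. The values of 1 complex I member are not reported here, though it stays in the counts.

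Deviations of libraries with the same replicate number correlated from -0.16 to 0.06 in LN. In whole BM libraries they correlated at 0.25 between WT and Y665H and at 0.21 between Y665H and Y665F, but at -0.05 between WT and Y665F, so the block was kept as an alternative. In early erythroid cells all 3 correlations were above 0.1 (0.32, 0.12 and 0.24).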

Additional observations from a re-analysis of the deposited data

Results flagged for a closer look

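Ndufa10, Ndufv1 and Sdhd lay on opposite sides of WT in the 2 tissues with replicates, since every Y665F library of BM was below both WT libraries and every Y665F homo library of LN was above both. The log2 fold changes were -1.16 in BM and 0.36 in LN for Ndufa10, -1.11 and 0.35 for Ndufv1, and -1.06 and 0.23 for Sdhd. The difference between the tissues was not tested, and none of the 3 passed the test in LN. Over the genes tested in both tissues, this order of libraries was seen in 10 of 76 members and 5.56% of all genes, and the reverse, above WT in BM and below in LN, in 0 members and 15.1% of all genes. Alone, 16.9% of genes had both homo libraries of LN above WT. The tissues also differ in cell types, in Cell Ranger version and in the ratio of T cell receptor segments given below.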

How the results depend on the processing

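Of 223 counts of called members recomputed under an alternative, 191 were within 1.5 times the reported count. The 191 include reported counts of 0 that stayed at 0, such as those of Y665H against WT in whole BM libraries. They therefore do not show how stable the counts above 0 are. Of 940 values of the 66 named genes, 810 kept their direction and side of the threshold, 106 were no longer past it, 13 came to pass it and 11 reversed. Without the filter on low counts the counts became 6 in LN Y665F homo, 2 in LN Y665F het and 2 in BM B lineage Y665F against WT, and without a minimum CPM 3 spleen members were past 0.5 in Y665F and 2 in Y665H. With the length offset the GMP count was 12. With the replicate number as a block, 15 of 16 counts were within 1.5 times, counts of 0 that stayed at 0 among them. The exception was B lineage, where 3 passed with the replicate block and 7 with block and length offset. The block left the whole BM count of Y665F against WT at 23, all of them the genes called without it, and gave 23 in early erythroid cells.

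Leaving out 1 library gave ranges of 6 to 41 calls for BM Y665F against WT, 27 to 65 for Y665F against Y665H, 3 to 30 in GMP, 3 to 22 in early erythroid, 0 to 5 in B lineage and 0 to 29 in stem cells, 0 to 48 for Y665H against WT in stem cells (48 without WT replicate 2), and 0 to 1 in LN Y665F homo libraries and in their CD8 T cells. An arm left with 1 library was assumed to vary like the others, and the shares of all genes called in these fits are not given here. In the stem cell gate the direction of the calls in Y665F against WT, given above, depended on which WT library was left out. Among the values of named genes, reversals were confined to mt-Nd1 and mt-Cytb in whole BM libraries, neither called. In Y665F against WT, mt-Nd1 was -0.0519 without a mitochondrial limit and -0.14 to 0.27 with a library left out, and mt-Cytb -0.12 to 0.27. In Y665F against Y665H, mt-Nd1 was -0.0389 with DESeq2, -0.0389 with RLE scaling, -0.0064 with only these 2 genotypes and -0.20 to 0.25 with a library left out, and mt-Cytb -0.11 to 0.28. The causes were not tested. The neutrophil gate, with 3 to 222 cells per library, was not run. With 2 libraries per genotype, a member that did not pass is not shown to be unchanged.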

Other observations

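The ratio of T cell receptor beta variable to constant UMIs, which rises when reads start at the 5′ end of transcripts, was 3.68 to 6.00 in LN, 0.0272 to 0.0298 in spleen and 0.909 to 1.97 in BM apart from 9.85 in Y665F replicate 1. The BM ratios rest on few counts, 61 to 186 constant UMIs per library, and the 9.85 on 601 variable and 61 constant UMIs. The labels name 1 kit for all libraries. Genotypes were therefore compared only within a tissue, and the shares of UMIs that members took are not to be compared between tissues.

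In BM, the mitochondrial genes mt-Atp8 and mt-Atp6, which overlap, both encode subunits of ATP synthase. The ratio of Y665F to WT was fitted at 1.77 on the log2 scale for mt-Atp8, and in mt-Atp6 the libraries of the 2 genotypes overlapped. The difference between the genes was not tested. In the GMP, early erythroid and B lineage gates mt-Atp8 was higher by 1.76, 1.60 and 1.82. In the stem cell gate it was at 114.0 and 50.3 CPM in WT and 153.7 and 178.2 in Y665F, which did not pass (1.16 ± 0.38, edgeR adjusted p = 0.268).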
